A study of Mus musculus with 38 samples.

Results

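Expression of 10 genes of VEGF and angiopoietin signalling was examined in 38 RNA-Seq libraries of cells sorted from mouse bone. The genes were 4 ligands (Vegfa, Vegfc, Angpt1 and Angpt2) and 6 receptors or co-receptors (Kdr, Flt1, Flt4, Nrp1, Tek and Tie1), chosen by name and matched by symbol to the 13260 genes of the deposited table, which held all 10. Mice of the strain C57Bl/KaLwRijHsd, aged 8 to 10 weeks, received either PBS vehicle or 1000000 cells of 5TGM1-GFP, a murine myeloma line labelled with green fluorescent protein, by vein, and were killed on day 23 with no drug given to either group. Aliquots of 100 cells from the bone lining were sorted, after CD45+ and Ter119+ blood cells had been gated out, as endothelial cells (CD31+), stromal progenitors (CD31-, Sca1+, ALCAM-) or osteoprogenitors (CD31-, ALCAM+, Sca1-), with 5 libraries per condition, or 4 for osteoprogenitors. GFP+ myeloma cells gave 5 libraries from the bone lining and 5 from central marrow, all from myeloma-bearing mice and all from this 1 cell line. Libraries are given throughout in the order of their letters, C, L, M, N and O for healthy mice and D, E, G, I and J for myeloma-bearing mice, and osteoprogenitors had no library C and no library E.

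VEGF ligands are secreted proteins that bind receptor tyrosine kinases on endothelial cells. VEGF-A acts through Kdr and is also bound by Flt1, which takes up ligand with weak signalling of its own, while VEGF-C acts through Flt4 and in part through Kdr, and Nrp1 is a co-receptor that binds VEGF beside them. Angiopoietin 1 activates the receptor Tek and steadies vessels, angiopoietin 2 can oppose it, and Tie1 is a partner of Tek with no well-defined ligand of its own. In bone marrow, where the wide, leaky sinusoids are lined by endothelium that carries Flt4, these factors are known to link osteogenic and perivascular stroma to the vessels.

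Total reads on genes ranged from 9735031 to 34883291 per library. The summed level of 5 endothelial markers (Cdh5, Pecam1, Selp, Eng and Emcn) was 1840 to 4000 RPKM (reads scaled for gene length and library size) in the 10 endothelial libraries and at most 29.6 RPKM in the other 28, although CD31, the product of Pecam1, was used in the sort. The osteoprogenitor markers summed to 6238 to 54870 RPKM in osteoprogenitors, most of it Bglap, and the plasma cell markers to 3721 to 10340 RPKM in myeloma cells. Of the 5 stromal progenitor markers (Ly6a, Lepr, Pdgfra, Pdgfrb and Prrx1), Pdgfra, at 34.2 to 98.1 RPKM against at most 6.01 RPKM, and Prrx1, at 36.2 to 144 against at most 33.4 RPKM, set every library of that sort apart from endothelium. The other 3 did not: Ly6a, which encodes Sca1, was higher in endothelial libraries, and Lepr (0.0922 to 42.6 RPKM in endothelium, 3.53 to 95.8 RPKM in stromal progenitors) and Pdgfrb (0 to 17.9 and 0.3215 to 52.8 RPKM) overlapped. Markers of other cell types were read too. The macrophage and osteoclast markers summed to 103 to 626 RPKM in stromal progenitors and 123 to 407 RPKM in osteoprogenitors. They summed to 170 to 902 RPKM in myeloma cells and to at most 194 RPKM in endothelial libraries. The chondrocyte markers summed to 1327 to 4637 RPKM in osteoprogenitors and to at most 416 RPKM in stromal progenitors. In endothelial libraries the pericyte and smooth muscle markers summed to at most 681 RPKM, and the platelet list reached 236 RPKM for Pf4, 37.1 RPKM for Gp1bb and 8.77 RPKM for Itga2b. Neutrophil markers summed to 7233 RPKM in stromal progenitor library L and 8061 RPKM in library E, although the sort was CD45-. In bulk aliquots of this kind, fewer cells that carry a gene and less RNA per cell cannot be told apart.

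The VEGF ligand genes Vegfa and Vegfc had their highest means in different sorts, Vegfa in osteoprogenitors and Vegfc in endothelial cells, so the 250 bases just before the RefSeq start of each are shown. They are given 5′ to 3′ on the strand of the gene in GRCm38.p6, for Vegfa at chr17:46032378-46032627 (minus strand) and for Vegfc at chr8:54077282-54077531 (plus strand). RefSeq gave 2 starts for Vegfa, and the window shown belongs to the outer one. Capitals mark GGAAG, a core bound by ETS factors, or its reverse complement CTTCC.
Vegfa: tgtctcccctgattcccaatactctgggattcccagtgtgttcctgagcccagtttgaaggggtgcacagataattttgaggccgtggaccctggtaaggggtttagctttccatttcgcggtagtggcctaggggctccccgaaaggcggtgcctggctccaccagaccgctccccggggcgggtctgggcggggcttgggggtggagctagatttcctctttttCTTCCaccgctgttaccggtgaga
Vegfc: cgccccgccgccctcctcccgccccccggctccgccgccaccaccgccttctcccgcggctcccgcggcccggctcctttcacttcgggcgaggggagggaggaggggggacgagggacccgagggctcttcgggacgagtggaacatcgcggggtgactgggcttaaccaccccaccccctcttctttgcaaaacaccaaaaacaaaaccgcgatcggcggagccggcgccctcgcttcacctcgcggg
The Vegfa window held 1 match, on the reverse strand, and the Vegfc window 0, which says only that these letters were not in this window. GGAAG on either strand, with no other motif searched, was present in 7 of 9 promoter windows of 250 bases that RefSeq gave for 8 of the 10 genes, and in 21047 of 32851 such windows of all genes (64.1%). The matches are given as a description of the sequences. Promoters of Angpt1 and Angpt2 were not analysed here.

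All 6 receptors were strongly expressed in endothelial cells of both conditions, and 5 of them were close to absent from every other cell type. Each of the 6 was above 1 RPKM in 10 of 10 endothelial libraries. Of the other 28 libraries, 0 were above 1 RPKM for Kdr, Flt1 and Tie1, 1 for Flt4, 1 for Tek and 14 for Nrp1.

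**Figure D1:**
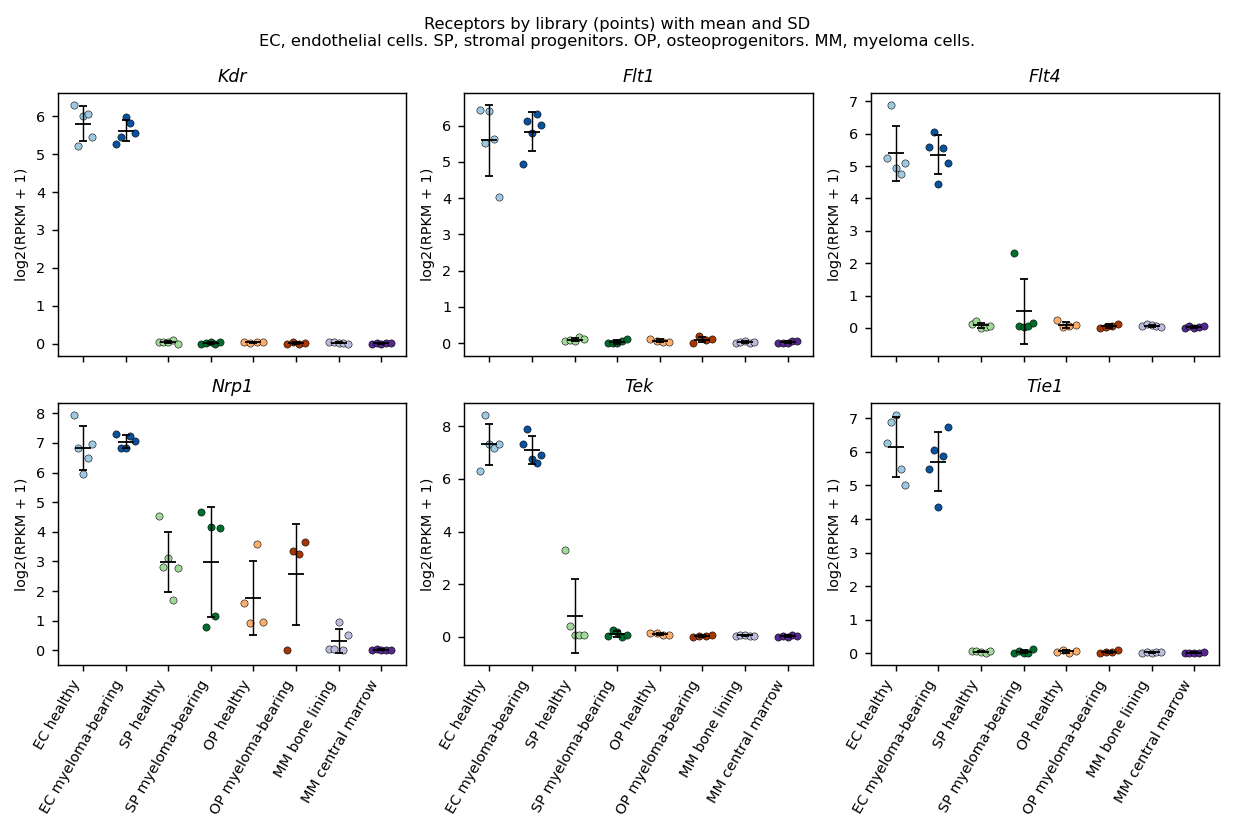
Level of each receptor gene as log2(RPKM + 1) on the vertical axis, with the 8 groups along the horizontal axis; points are libraries, and bars are the mean and SD. Kdr, Flt1 and Tie1 separate all 10 endothelial libraries from the other 28, Flt4 and Tek do so with 1 stromal progenitor library above 1 RPKM each, and Nrp1 is also present in stromal progenitors and osteoprogenitors.

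Kdr, the main signalling receptor for VEGF-A (chromosome 5, 75932827 to 75979072), was read at 78.25, 36.0, 63.1, 65.6 and 43.2 RPKM in endothelial libraries of healthy mice and at 37.8, 43.0, 62.7, 55.3 and 46.2 RPKM in those of myeloma-bearing mice. Its means were 57.2 ± 17.3 and 49.0 ± 9.96 RPKM (SD, n = 5 each), and the libraries of the 2 conditions overlapped. Outside endothelium its highest value was 0.0672 RPKM, from 8 reads. Kdr varied least of the 6 receptors among healthy endothelial libraries, by 2.17 times from the lowest to the highest.

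Flt1, which binds VEGF-A and limits its supply (chromosome 5, 147561604 to 147726438), was at 84.6, 44.4, 84.15, 48.4 and 15.2 RPKM in healthy and 29.5, 68.5, 54.4, 79.2 and 63.4 RPKM in myeloma-bearing endothelium. Library O was the lowest of the healthy and library D the lowest of the myeloma-bearing libraries, and the 2 sets overlapped around means of 55.35 ± 29.4 and 59.0 ± 18.75 RPKM (SD, n = 5 each). No library of another cell type exceeded 0.1385 RPKM. The level of Flt1 relative to Kdr, both per length, was near even, with a mean log2 ratio within a library of -0.21 in healthy and 0.21 in myeloma-bearing mice and 3 of 5 libraries above 0 in each.

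Flt4, the receptor for VEGF-C (chromosome 11, 49609679 to 49652739), was at 36.8, 118, 30.0, 25.9 and 33.3 RPKM in healthy and 46.8, 65.3, 20.8, 46.4 and 33.5 RPKM in myeloma-bearing endothelial libraries. Healthy library L stood apart from the other 4 of its group, which lay close together, and all 5 myeloma-bearing libraries fell inside the healthy range or just below it. Flt4 was at most 0.174 RPKM in 27 of the other 28 libraries and at 3.98 RPKM (318 reads) in stromal progenitor library D of a myeloma-bearing mouse. In that library the endothelial markers summed to 0.852 RPKM, with Cdh5 at 0.110 and Pecam1 at 0.155 RPKM, and the other VEGF receptor genes of endothelium, Kdr and Flt1, were at 0 and 0 RPKM. Among lymphatic markers in the table, Pdpn and Lyve1 summed to at most 44.5 RPKM in endothelial libraries and to 0 in 2 of them, G and M, where Flt4 was at 20.8 and 30.0 RPKM.

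Tek, the receptor for the angiopoietins (chromosome 4, 94739086 to 94874976), had the highest mean level per length of the 6 in endothelium of both conditions. It was read at 77.2, 348, 158, 144 and 158 RPKM in healthy and 160, 237, 108, 96.7 and 119 RPKM in myeloma-bearing libraries, with means of 177 ± 101 and 144 ± 57.3 RPKM (SD, n = 5 each). Library L was the highest healthy library and C the lowest, and every myeloma-bearing value lay between them. By library, Tek was the highest of the 6 in 4 of 5 healthy libraries and in 2 of 5 myeloma-bearing ones. In myeloma-bearing mice Nrp1 was the highest in the other 3, with a median of 133 RPKM against 119 RPKM for Tek. The study lists Tek among its markers of endothelial cells. Of the other 28 libraries, 27 were at most 0.327 RPKM, and stromal progenitor library C of a healthy mouse was at 8.83 RPKM (810 reads), where Cdh5 was at 0.204 and Pecam1 at 0.0921 RPKM. The 5 endothelial markers summed to 6.64 RPKM in that library, the highest of the healthy stromal progenitors, and Lyve1 was at 6.83 RPKM (351 reads) there and at 0 in the other 9 stromal progenitor libraries.

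Tie1, the partner of Tek (chromosome 4, 118471191 to 118489849), was at 75.2, 118, 137, 43.7 and 31.4 RPKM in healthy and 44.2, 66.0, 19.55, 57.3 and 107 RPKM in myeloma-bearing endothelial libraries. Library G was the lowest and library M the highest of the 10, and the conditions overlapped. Its level was below that of Tek in 10 of 10 endothelial libraries, with a mean log2 ratio of Tie1 to Tek of -1.16 in healthy and -1.39 in myeloma-bearing mice. No other library was above 0.0874 RPKM, including stromal progenitor library C, in which Tek had been read.

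Nrp1, the VEGF co-receptor (chromosome 8, 128358591 to 128505476), was highest in endothelium and differed from the other receptors in being read in most stromal libraries too. Endothelial libraries were at 248, 111, 60.4, 89.1 and 123.5 RPKM in healthy and 155, 112, 112.5, 150 and 133 RPKM in myeloma-bearing mice. Stromal progenitors were at 22.2, 6.01, 7.68, 2.275 and 5.90 RPKM in healthy and 24.6, 0.7097, 17.0, 1.21 and 16.6 RPKM in myeloma-bearing mice. The healthy libraries were low apart from C, and the myeloma-bearing libraries fell into 3 high (D, G and J) and 2 low (E and I). Osteoprogenitors ranged from 0.883 to 11.1 RPKM in healthy and from 0 (library D) to 11.5 RPKM in myeloma-bearing mice, and no library of myeloma cells exceeded 0.917 RPKM.

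Endothelial cells were compared with each stromal cell type within each condition by limma on log2(RPKM + 1), testing genes that exceeded 1 RPKM in 4 or more libraries of the comparison, and a gene was called at an adjusted p below 0.1 with a difference above 1 on that log2 scale, which understates the change of low genes. Of the 10 genes, 8 passed the filter against stromal progenitors in healthy mice (Angpt1 and Angpt2 did not), and 7 were called higher in endothelium, where 6.69% of all 8457 genes tested were called higher. Kdr, Flt1, Flt4, Tek and Tie1 passed the filter through their endothelial libraries and so had to differ, and their count is a description. Against osteoprogenitors in healthy mice 9 genes passed and 7 were called higher (6.67% of all genes tested). In myeloma-bearing mice all 10 passed in both comparisons and 7 were called higher in each, against 7.05% of genes for stromal progenitors and 8.18% for osteoprogenitors. The 7 genes were in each case the 6 receptors and Vegfc. Against osteoprogenitors of healthy mice Nrp1 and Vegfc also passed the filter through endothelium, with 2 of 4 osteoprogenitor libraries above 1 RPKM for each.

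The differences in healthy mice between endothelial cells and stromal progenitors, on the log2(RPKM + 1) scale, were 5.77 (SE 0.73, adjusted p = 8.30e-05) for Kdr, 5.50 (SE 0.79, adjusted p = 0.000256) for Flt1 and 5.30 (SE 0.77, adjusted p = 0.000302) for Flt4. For the angiopoietin receptors they were 6.53 (SE 0.84, adjusted p = 9.70e-05) for Tek and 6.10 (SE 0.77, adjusted p = 8.06e-05) for Tie1. Nrp1, which stroma also carried, differed by 3.84 (SE 0.71, adjusted p = 0.00206) from stromal progenitors and by 5.07 (SE 0.82, adjusted p = 0.00118) from osteoprogenitors. In myeloma-bearing mice the same differences from stromal progenitors ran from 4.07 for Nrp1 (SE 0.82, adjusted p = 0.00324) to 6.99 for Tek (SE 0.68, adjusted p = 4.80e-06). The values of Kdr, Flt1, Flt4, Tek and Tie1 are a description for the reason given above, whereas Nrp1 was also above 1 RPKM in 5 of 5 healthy and 4 of 5 myeloma-bearing stromal progenitor libraries. Of the healthy osteoprogenitor libraries 2 of 4 were above 1 RPKM for Nrp1. It passed the filter there through endothelium, and its difference from osteoprogenitors is a description.

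**Figure D2:**
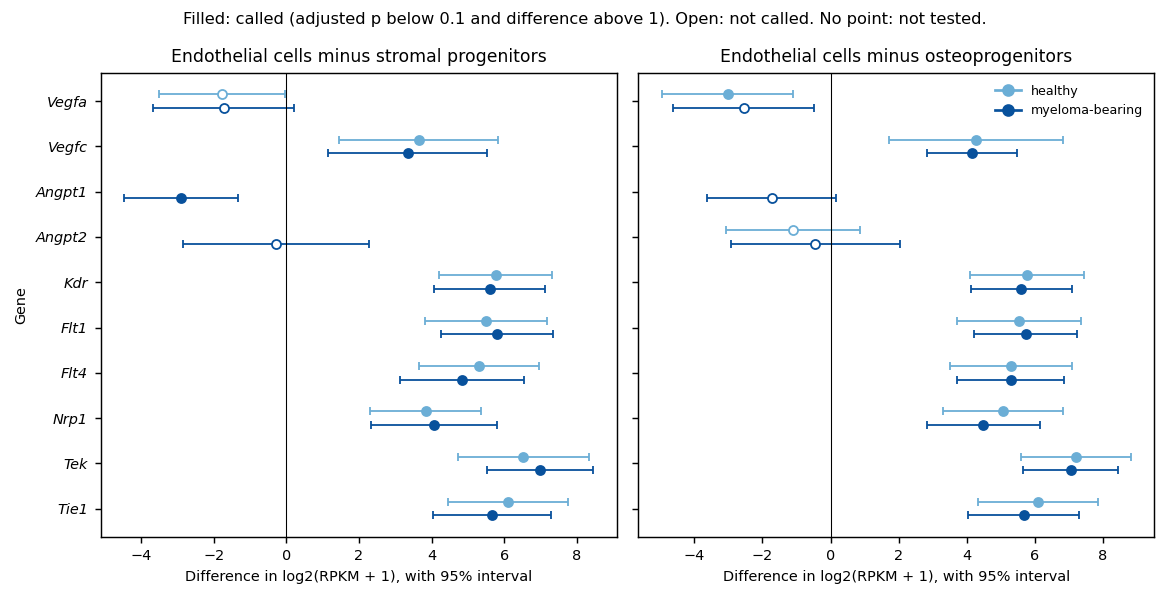
Difference between endothelial cells and stromal progenitors (left) or osteoprogenitors (right) on the horizontal axis, in log2(RPKM + 1) with 95% intervals, for each gene on the vertical axis, in healthy (light) and myeloma-bearing (dark) mice; filled points were called. The 6 receptors and Vegfc lie right of 0 in all 4 comparisons, and Vegfa lies left of 0 but was called only against osteoprogenitors of healthy mice.

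Among the ligands, Vegfa had its highest means in osteoprogenitors, whereas Vegfc was highest in endothelial cells. Within a library, the log2 ratio of Vegfc to Vegfa was above 0 in 10 of 10 endothelial libraries, with means of 5.77 in healthy and 5.51 in myeloma-bearing mice, and in 1 of 4 osteoprogenitor libraries of healthy and 0 of 4 of myeloma-bearing mice. Stromal progenitors were mixed, with 2 of 5 libraries above 0 in healthy and 3 of 5 in myeloma-bearing mice.

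Vegfa, the main factor of vessel growth and a target of hypoxia signalling (chromosome 17, 46016993 to 46032377), was at 16.7, 6.885, 23.4 and 17.5 RPKM in osteoprogenitors of healthy and at 10.0, 15.8, 30.65 and 12.0 RPKM in those of myeloma-bearing mice. The chondrocyte markers given above were also highest in osteoprogenitors, and their part in the Vegfa values was not tested. Stromal progenitors were at 11.8, 1.99, 5.26, 9.34 and 4.57 RPKM in healthy and 11.4, 9.75, 6.12, 13.8 and 4.21 RPKM in myeloma-bearing mice. These cell types overlapped, with every library above 1 RPKM, and osteoprogenitors differed from stromal progenitors by 1.23 (SE 0.77, adjusted p = 0.558) in healthy and 0.82 (SE 0.79, adjusted p = 0.760) in myeloma-bearing mice.

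In endothelium Vegfa was uneven, at 0.401, 0.0409, 6.92, 0.0338 and 1.35 RPKM in healthy and 0.334, 0.386, 5.69, 0.0178 and 13.3 RPKM in myeloma-bearing libraries. Of the 10, 6 were below 1 RPKM, and M, O, G and J were above it. Lepr, a stromal marker, was at 38.9, 31.45, 42.6 and 37.8 RPKM in these 4, and at 32.1 and 26.8 RPKM in C and D, where Vegfa was below 1 RPKM. Pdgfrb, of the same list, went otherwise, at 0.0158, 2.75, 1.33 and 0.0428 RPKM in M, O, G and J. It was highest in E, at 17.9 RPKM, where Vegfa was at 0.386 RPKM. In library J, the highest for Vegfa, the chondrocyte markers summed to 24.4 RPKM, against at most 0.804 RPKM in the other 9. The part of cells with these markers in the Vegfa values was not tested. Against each stromal type Vegfa passed the filter through the stromal libraries, with 2 of 5 endothelial libraries of each condition above 1 RPKM. The comparisons that follow are therefore a description. Endothelial cells were lower than osteoprogenitors in healthy mice, by -3.02 (SE 0.89, adjusted p = 0.0425), where 9.81% of all genes tested were called lower. That call was lost without the libraries of letter L (adjusted p = 0.187), N (0.264) or O (0.185), and with letters as a replicate block (-2.90, adjusted p = 0.141). The difference in myeloma-bearing mice was -2.55 (SE 0.96, adjusted p = 0.108), and passed without letter J (-3.26, adjusted p = 0.0974). Against stromal progenitors it was -1.79 (SE 0.81, adjusted p = 0.192) in healthy mice, which passed without letter M (-2.32, adjusted p = 0.0755), and -1.73 (SE 0.91, adjusted p = 0.281) in myeloma-bearing mice. When all 38 libraries shared 1 fit, Vegfa was called lower in endothelium in all 4 comparisons, with adjusted p of 0.0432 and 0.0579 against stromal progenitors and 0.00591 against osteoprogenitors of myeloma-bearing mice. That fit shares 1 spread per gene over all groups, although the spread differs between cell types.

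Vegfc, the ligand of Flt4 (chromosome 8, 54077532 to 54186454), was at 78.2, 277.5, 30.1, 175 and 112 RPKM in endothelial libraries of healthy mice and 45.8, 231, 129, 157 and 160 RPKM in those of myeloma-bearing mice. The endothelial libraries therefore carried both this ligand and its receptor, with Flt4 at 20.8 RPKM or more in the same 10 libraries. Stromal progenitors were at 9.41, 34.4, 0.0247, 35.8 and 2.26 RPKM in healthy and 0, 7.97, 48.7, 103 and 6.425 RPKM in myeloma-bearing mice, and some of these reached the endothelial range while others were at or near 0. Osteoprogenitors were at 0.125, 47.7, 14.25 and 0.0867 RPKM in healthy mice, 2 high and 2 near 0, and at 7.08, 7.60, 4.91 and 5.85 RPKM in myeloma-bearing mice, where the 4 lay close together.

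Vegfc was higher in endothelial cells than in stromal progenitors of healthy mice by 3.64 (SE 1.03, adjusted p = 0.0291), and than in osteoprogenitors by 4.28 (SE 1.19, adjusted p = 0.0314). The latter is a description, since Vegfc passed the filter there through endothelium, with 2 of 4 osteoprogenitor libraries above 1 RPKM. In myeloma-bearing mice the differences were 3.33 (SE 1.03, adjusted p = 0.0468) from stromal progenitors and 4.15 (SE 0.61, adjusted p = 0.000505) from osteoprogenitors. The last of these held in every alternative, and the other 3 did not. Without letter O the calls in healthy mice were lost (adjusted p = 0.123 against stromal progenitors and 0.164 against osteoprogenitors), and without letter L that against osteoprogenitors was lost (3.17, adjusted p = 0.1655). In myeloma-bearing mice the call against stromal progenitors was lost without letter E (adjusted p = 0.184) or J (0.1725).

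**Figure D3:**
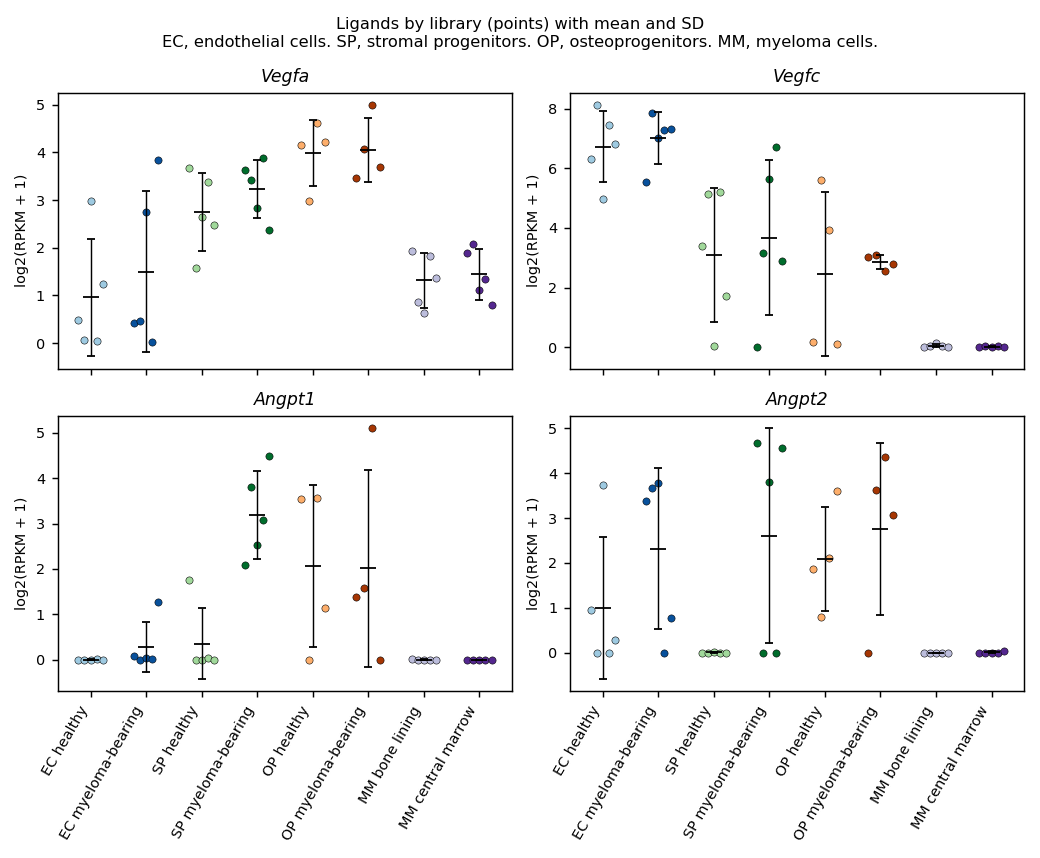
Level of each ligand gene as log2(RPKM + 1) on the vertical axis, with the 8 groups along the horizontal axis; points are libraries, and bars are the mean and SD. Vegfa is highest in osteoprogenitors, Vegfc in endothelium, Angpt1 is in all 5 stromal progenitor libraries of myeloma-bearing mice and above 1 RPKM in 1 of 5 of healthy mice, and Angpt2 is scattered over the 3 cell types of the bone lining.

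Angpt1, the activating ligand of Tek (chromosome 15, 42424667 to 42676977), had its highest means in the stromal cell types. In stromal progenitors of healthy mice it was at 2.36, 0, 0, 0.0337 and 0 RPKM, from 190, 0, 0, 3 and 0 reads, and in those of myeloma-bearing mice at 3.23, 13.1, 4.72, 7.50 and 21.3 RPKM, from 180, 1381, 322, 762 and 1537 reads. Osteoprogenitors were at 10.7, 0, 10.9 and 1.21 RPKM in healthy and 1.60, 2.001, 33.3 and 0 RPKM in myeloma-bearing mice, so that high and empty libraries stood side by side in both conditions. In endothelium it was at most 0.0115 RPKM in healthy mice, and 0.0657, 0, 0.0301, 0.0183 and 1.401 RPKM in myeloma-bearing mice, with library J alone above 0.1 RPKM.

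Endothelial cells had less Angpt1 than stromal progenitors in myeloma-bearing mice, by -2.91 (SE 0.73, adjusted p = 0.01575) (9.09% of all genes tested were called lower). It passed the filter there through its 5 stromal progenitor libraries, with 1 of 5 endothelial libraries above 1 RPKM, so the call is a description. The difference from osteoprogenitors was -1.73 (SE 0.88, adjusted p = 0.251). In healthy mice Angpt1 did not pass the filter in either comparison with endothelium, although 3 of 4 osteoprogenitor libraries were above 1 RPKM. Osteoprogenitors and stromal progenitors differed in Angpt1 by 1.71 (SE 0.81, adjusted p = 0.393) in healthy mice and by -1.18 (SE 1.09, adjusted p = 0.748) in myeloma-bearing mice, with intervals from -0.03 to 3.45 and from -3.48 to 1.12. In these 2 comparisons of stroma with stroma, 4 and 5 of the 10 genes passed the filter and limma called 0, where 3.58% and 3.35% of all genes were called in either direction.

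Angpt2, which can act against Angpt1 at Tek (chromosome 8, 18690263 to 18741562), varied widely between libraries of the same group. Endothelial libraries were at 0.941, 0, 12.3, 0 and 0.208 RPKM in healthy and 9.45, 11.6, 12.8, 0 and 0.692 RPKM in myeloma-bearing mice. Osteoprogenitors were at 2.64, 0.734, 3.295 and 11.2 RPKM in healthy and 0, 11.3, 19.4 and 7.42 RPKM in myeloma-bearing mice, and both cell types overlapped between conditions. Stromal progenitors of healthy mice gave 1 read in 5 libraries, and those of myeloma-bearing mice were at 24.45, 0, 12.9, 0 and 22.5 RPKM, that is, present in D, G and J and at 0 in E and I. Angpt2 differed between endothelial cells and osteoprogenitors by -1.10 (SE 0.91, adjusted p = 0.529) in healthy and -0.44 (SE 1.14, adjusted p = 0.876) in myeloma-bearing mice, and between endothelial cells and stromal progenitors of myeloma-bearing mice by -0.29 (SE 1.20, adjusted p = 0.9275), and was not called in any of these.

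Among stromal progenitors of myeloma-bearing mice, the same 3 libraries, D, G and J, held Rgs5, a pericyte gene, at 81.7, 301 and 160 RPKM, while E and I were at 0, and they were also the 3 with high Nrp1. The 5 pericyte and smooth muscle markers together summed to 162, 567 and 218 RPKM in D, G and J, and to 68.5 RPKM in E and 128.5 RPKM in I. Without Rgs5 the sums of the other 4 were 80.15, 265.5 and 58.2 RPKM in D, G and J, with J the lowest of the 5 libraries. In healthy mice the sums ran from 20.9 to 275 RPKM, and library M, with the highest, had Rgs5 at 40.7 RPKM with Angpt2 at 0.0130 RPKM, and library C had Nrp1 at 22.2 RPKM with Angpt2 at 0. In endothelium of healthy mice, library M had both the highest Angpt2 and the highest Rgs5 (354 RPKM), and Rgs5 was at 171, 0.0315, 55.9 and 5.90 RPKM in C, L, N and O, where Angpt2 was below 1 RPKM. In endothelium of myeloma-bearing mice, Rgs5 was at 0, 113, 112, 23.9 and 76.8 RPKM in D, E, G, I and J. Of the 3 of these libraries with Angpt2 above 1 RPKM, E and G had the highest Rgs5 and D had none, with pericyte markers that summed to 0.0812 RPKM. The part of pericytes in the Angpt2 values was not tested.

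**Figure D4:**
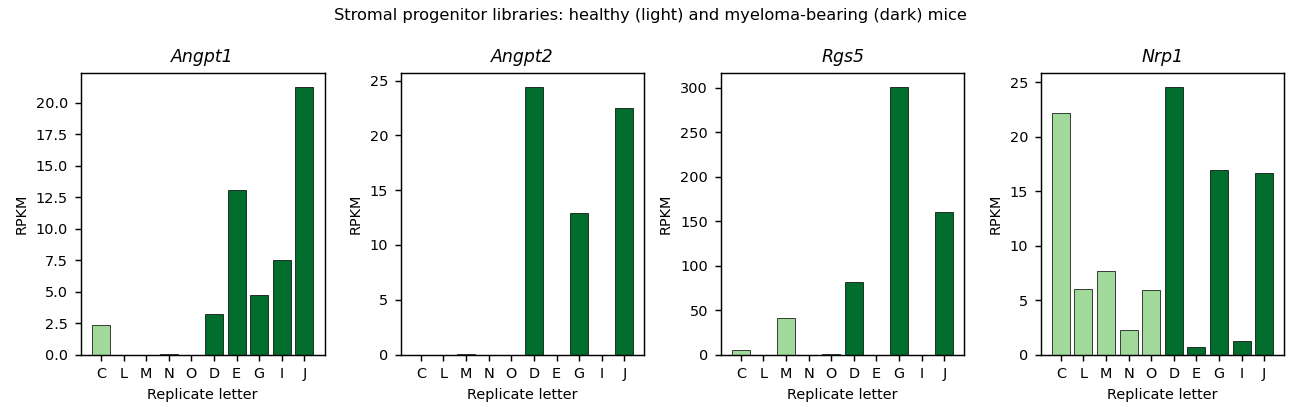
Level in RPKM on the vertical axis of Angpt1, Angpt2, the pericyte gene Rgs5 and Nrp1 in the 10 stromal progenitor libraries, by replicate letter on the horizontal axis, for healthy (light) and myeloma-bearing (dark) mice. Every myeloma-bearing library is above every healthy one for Angpt1, and of the 5 myeloma-bearing libraries D, G and J hold Angpt2, Rgs5 and the 3 highest Nrp1 values, whereas healthy libraries C (Nrp1 at 22.2 RPKM) and M (Rgs5 at 40.7 RPKM) hold at most 1 read of Angpt2.

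Of the 10 genes, Vegfa alone was above 1 RPKM in myeloma cells. These cells were at 2.82, 0.815, 0.550, 2.565 and 1.56 RPKM of Vegfa in the bone lining and 2.71, 3.23, 1.18, 1.54 and 0.731 RPKM in the central marrow, which overlapped and differed by -0.12 (SE 0.43, adjusted p = 0.990). The other 9 genes were at or below 1 RPKM in all 10 libraries, so Vegfa alone passed the filter there, and limma called 0.203% of all genes between the 2 sites. Against the 3 cell types of the bone lining of myeloma-bearing mice, 8, 4 and 2 of the 10 genes passed the filter, and 7, 4 and 2 were called lower in myeloma cells of the bone lining than in endothelial cells, stromal progenitors and osteoprogenitors (17.1%, 18.8% and 18.4% of all genes tested were called lower). The genes other than Vegfa passed the filter through the niche cells alone and so had to be lower, and these counts are a description. Vegfa was lower in myeloma cells of the bone lining than in osteoprogenitors by -2.73 (SE 0.53, adjusted p = 0.00153) and than in stromal progenitors by -1.91 (SE 0.54, adjusted p = 0.0138). It was above 1 RPKM in 3 of 5 of these myeloma libraries and passed the filter through the stromal ones, so these values are a description too. Its difference from endothelium was -0.18 (SE 0.73, adjusted p = 0.880), with an interval from -1.77 to 1.42. The numbers called against stromal progenitors and osteoprogenitors fell to 2 to 3 and 1 to 2 when a letter was left out, where the genes no longer called had not passed the filter.

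The comparison of myeloma-bearing with healthy mice asked whether these genes responded to the tumour. In limma, 0 of the 9, 4 and 5 genes that passed the filter were called in endothelial cells, stromal progenitors and osteoprogenitors, where 0%, 0% and 0.0115% of all genes tested were called. At an unadjusted p below 0.05 there were 414, 437 and 422 genes of the 7880, 8747 and 8664 tested. With voom-limma on the reads of each pair of groups, 4, 0 and 0 genes passed, of which 0 were among the 10. Fits that call so few genes of any kind say little about these 10. Fits of all 38 libraries called more genes in each cell type, as given further below. The study, with voom-limma and these thresholds, also reported more genes in each.

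The gene with the widest separation was Angpt1 in stromal progenitors, with means of 0.480 ± 1.05 RPKM in healthy and 9.96 ± 7.36 RPKM in myeloma-bearing mice (SD, n = 5 each). Every myeloma-bearing library was above every healthy one, the lowest at 3.23 and the highest healthy one at 2.36 RPKM, which held for 0.354% of the 8747 genes tested. The difference was 2.84 (SE 0.82, adjusted p = 0.811), with a 95% interval from 1.12 to 4.56, and did not pass. Angpt1 passed the filter through the 5 myeloma-bearing libraries, with 1 of 5 healthy libraries above 1 RPKM, so these fits are a description. The difference ran from 2.51 to 3.18 when letters were left out in turn, with adjusted p from 0.570 to 0.996, and was 2.59 (adjusted p = 0.919) without the libraries of highest neutrophil markers, L and E. In 1 fit of all 38 libraries it passed (adjusted p = 0.0428, with 31 genes called), and in voom-limma on the reads of all 38 libraries it was 8.18 on the log2 scale of reads (adjusted p = 0.0114, with 41 genes called). Such fits share 1 spread per gene over all 8 groups, and Angpt1 was at or near 0 in myeloma cells and healthy endothelium. Its SD there was at most 0.00516 RPKM, against 7.36 RPKM in stromal progenitors of myeloma-bearing mice. Lepr, the leptin receptor of perivascular stroma, ranged from 10.9 to 33.7 RPKM in healthy and from 3.53 to 95.8 RPKM in myeloma-bearing stromal progenitors, and its part in the Angpt1 values was not tested.

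Other stromal values in the 2 conditions overlapped. In stromal progenitors Angpt2 had means of 12.0 RPKM in myeloma-bearing and 0.00261 RPKM in healthy mice, with 3 of 5 libraries against 0 of 5 above 1 RPKM, and did not pass the filter, nor did Kdr, Flt1, Flt4, Tek and Tie1 there or in osteoprogenitors. For the others in stromal progenitors the differences were 0.48 (SE 0.83, adjusted p = 0.994) for Vegfa, 0.59 (SE 1.26, adjusted p = 0.996) for Vegfc and -0.01 (SE 1.00, adjusted p = 1.000) for Nrp1. In osteoprogenitors they were 0.07 for Vegfa (interval -1.44 to 1.58), 0.41 for Vegfc (-2.18 to 2.995), -0.05 for Angpt1 (-2.61 to 2.51), 0.67 for Angpt2 (-1.67 to 3.004) and 0.79 for Nrp1 (-1.46 to 3.05), each with an adjusted p of 0.998 or more. The median difference was 0.53 over the 4 genes tested in stromal progenitors and 0.41 over the 5 in osteoprogenitors, beside -0.00 and -0.03 over all genes tested.

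In endothelium Angpt1 did not pass the filter and no receptor was called, with differences from -0.44 for Tie1 (interval -1.95 to 1.06) to 0.24 for Flt1 (-1.27 to 1.75). Those of Kdr, Flt4, Nrp1 and Tek were -0.19 (-1.58 to 1.20), -0.04 (-1.61 to 1.53), 0.21 (-0.97 to 1.39) and -0.21. The narrowest of these 6 intervals, that of Tek, spanned -1.38 to 0.97, and changes within it could not be told from none in these libraries. Angpt2 differed by 1.33 (SE 1.07, adjusted p = 0.956), Vegfa by 0.54 (SE 0.92, adjusted p = 0.9855) and Vegfc by 0.28 (SE 0.68, adjusted p = 0.9855). The median over the 9 genes was 0.21, beside 0.07 over all genes tested.

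**Figure D5:**
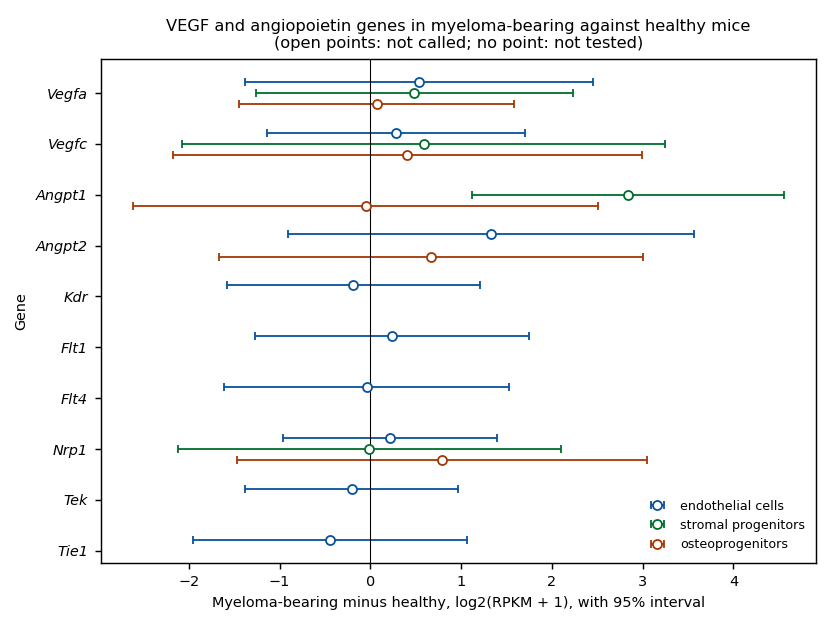
Difference between myeloma-bearing and healthy mice on the horizontal axis, in log2(RPKM + 1) with 95% intervals, for each gene on the vertical axis in endothelial cells, stromal progenitors and osteoprogenitors. Intervals cross 0 except that of Angpt1 in stromal progenitors, from 1.12 to 4.56, which was not called after adjustment over all genes.

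The change with myeloma was also compared between cell types, as an interaction in limma, and 0 of the 10, 10 and 5 genes that passed were called for endothelial cells against stromal progenitors, endothelial cells against osteoprogenitors, and stromal progenitors against osteoprogenitors. Over all genes 0 were called in each, with 552, 516 and 437 at an unadjusted p below 0.05. The change of Angpt1 differed by -2.55 (SE 0.81, adjusted p = 0.9095) for endothelial cells minus stromal progenitors and by 2.89 (SE 1.41, adjusted p = 0.9995) for stromal progenitors minus osteoprogenitors. The other 9 genes ran from -1.27 for Angpt2 to 0.46 for Tek in the former, and the other 4 tested from -0.80 for Nrp1 to 1.93 for Angpt2 in the latter. For endothelial cells minus osteoprogenitors the 10 genes ran from -0.58 for Nrp1 to 0.66 for Angpt2. With voom-limma on all 38 libraries, 0 of the 10 genes were called in these 3 comparisons.

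The genes most like each receptor in their 8 group means were found by the root mean square difference in log2(RPKM + 1). Aplnr, the apelin receptor, was nearest to Kdr (0.08) and Flt1 (0.09), with Flt1 the next to Kdr (0.11) and Ushbp1 the next to Flt1 (0.10). Flt4 was nearest to Stab2 (0.15), a scavenger receptor of sinusoids, and Gpr56 (0.20), Tie1 to Kdr (0.13) and Aplnr (0.13), and Tek to Cd300lg (0.28) and Mmrn2 (0.29). Nrp1 and Vegfc each had the other as the nearest gene (0.38), followed by Slc9a3r2 for Nrp1 (0.40) and Tspan12 for Vegfc (0.40). Of the other ligands, Vegfa lay 0.48 from Zfp9 and Fam132a, Angpt1 0.33 from Gsta4 and 0.36 from Scube1, and Angpt2 0.35 from Vmac and 0.54 from Ebf3.

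Beyond the 10 genes, 51 other genes of the pathway were in the table. In healthy mice 39 of them passed the filter against stromal progenitors, with 15 called higher and 2 lower in endothelium, beside 6.69% and 10.6% of all genes tested. Against osteoprogenitors 39 passed, with 12 higher and 3 lower, beside 6.67% and 9.81% of all genes. In myeloma-bearing mice the counts were 12 higher and 3 lower of 41 against stromal progenitors (7.05% and 9.09% of all genes), and 16 higher and 3 lower of 42 against osteoprogenitors (8.18% and 9.51%). As with the receptors, some of these passed the filter through only 1 of the cell types compared, and their differences are then a description. Between myeloma-bearing and healthy mice limma called 0 of the 41, 31 and 34 that passed in endothelial cells, stromal progenitors and osteoprogenitors.

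Of the co-receptors and modulators, Ptprb, the phosphatase that acts on Tek, was at 124 ± 53.5 RPKM in healthy and 128 ± 43.7 RPKM in myeloma-bearing endothelium (SD, n = 5 each) and at most 0.118 RPKM in any library of healthy stroma. It passed the filter through endothelium alone, and its difference from stromal progenitors in healthy mice, 6.79 (SE 0.72), is a description. Plxnd1, the semaphorin receptor, which also passed the filter through endothelium alone, differed from them by 4.35 (SE 0.81). Adamts1, a protease that binds VEGF-A, was higher in endothelium than in stromal progenitors by 4.06 in healthy mice (SE 1.02, adjusted p = 0.0154) and by 1.81 in myeloma-bearing mice (SE 0.59, adjusted p = 0.0579). Against osteoprogenitors it was not called in healthy mice and was higher in endothelium of myeloma-bearing mice by 2.81 (SE 0.66, adjusted p = 0.0111). Ccbe1, which aids the cleavage of VEGF-C, was at 4.04 ± 2.35 RPKM in osteoprogenitors of healthy mice (SD, n = 4) and at most 0.00991 RPKM in endothelium of healthy mice, and passed the filter through osteoprogenitors alone.

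Of the transcription factors of endothelium, 6 of 7 tested were called higher than in stromal progenitors of healthy mice, where 6.69% of all genes were, with a median difference of 3.39, beside -0.21 over all genes tested. Sox18, Sox17 and Sox7, which take part in vessel development, differed by 8.17, 5.94 and 5.00. These 3 and Gata2 passed the filter through endothelium alone, so the count and these values are a description. Of the genes known to be induced by VEGF, Dll4, a Notch ligand, was at 16.4 ± 11.35 RPKM in healthy endothelium (SD, n = 5) and at 0 in all 5 healthy stromal progenitor libraries. Rcan1, an inhibitor of calcineurin, stood at 121.5 ± 53.6 RPKM in healthy stromal progenitors and 2.29 ± 3.31 RPKM in healthy endothelium (SD, n = 5 each). Dll4 passed the filter through endothelium alone and Rcan1 through its stromal libraries, so these values too are a description.

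Of 6 regulators of the hypoxia response, which controls Vegfa, 1 was called higher and 1 lower in endothelium than in stromal progenitors of healthy mice, beside 6.69% and 10.6% of all genes tested. Epas1, a hypoxia-inducible factor, was higher in endothelium than in stromal progenitors by 4.51 (SE 0.69, adjusted p = 0.000474), and Egln3, a prolyl hydroxylase that acts on such factors, was at 81.4 ± 81.15 RPKM in healthy stromal progenitors (SD, n = 5) and at most 0.149 RPKM in healthy endothelium. In myeloma-bearing mice it was at 5.002 to 60.03 RPKM in stromal progenitors and at most 0.0737 RPKM in osteoprogenitors. It passed the filter through stromal progenitors alone in both comparisons, and its values are a description. Among the other ligands, Vegfb was higher in myeloma cells of the bone lining than in stromal progenitors by 2.80 (SE 0.76, adjusted p = 0.0107), with 5 of 5 and 1 of 5 libraries above 1 RPKM. Pgf was lower in them than in osteoprogenitors (-3.11, SE 1.07, adjusted p = 0.0386), with 2 of 5 and 4 of 4 above 1 RPKM, and as the filter was passed through 1 group, both differences are a description.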

How the data were processed

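RNA-Seq libraries were made by SmartSeq2 from 100-cell aliquots of sorted bone cells. Per the labels and the submitters' processing notes, the authors aligned reads to mouse GRCm38 (mm10) with STAR 2.4.0, counted them on genes with featureCounts of Subread 1.4.5-p1, calculated RPKM with edgeR, and deposited 1 table of RPKM values by gene symbol. Low genes had been removed from it, so an absent gene is not a measured 0.

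The values of a gene are whole multiples of that of 1 read, and reads were recovered from them for 100% of values (within 0.001 reads), with totals from 9735031 to 34883291 and scaling factors from 0.627 to 1.596. A value near 0 rests on few reads, and PCR copies were counted without molecular identifiers.

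Groups were taken from the deposited labels. Pairs of groups were compared on log2(RPKM + 1) by limma 3.58.1, run under R 4.3.3, using lmFit and trended eBayes. A gene was tested if it exceeded 1 RPKM in 4 or more libraries of the comparison, and only those libraries entered the fit. Benjamini-Hochberg adjustment was over all genes tested, two-sided, and genes were called at an adjusted p below 0.1 and an absolute log2 difference above 1. Changes with myeloma were compared between cell types as interactions. The submitters state that replicates came from different mice, and p-values measure the spread between these libraries. The labels do not tie letters to mice. The fits were tested on simulated reads.

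Alternatives were a pseudocount of 0.1, no filter, an adjusted p below 0.05, all 38 libraries in 1 fit, no trend, quantile normalization, voom-limma on the recovered reads, a block for shared letters and leaving out each letter. Fits of all 38 libraries take 1 spread per gene from groups of unlike spread, including groups at or near 0, which limits what their calls show. Voom-limma with all 38 libraries, and leaving out the stromal progenitor libraries with the highest neutrophil markers, were chosen after the data were seen.

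By rule, all 10 members were followed in every comparison. Of other pathway lists, at most the 3 called genes with the largest difference per comparison were named, and the 2 genes nearest to each member in the 8 group means. The members and lists were chosen with earlier results of these data known. Ratios of members were described without a test. Gene positions and sequences are those of RefSeq for GRCm38.p6. Python 3.11.15, numpy 2.4.6, pandas 2.3.3 and matplotlib 3.10.9 were used.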

Additional observations from a re-analysis of the deposited data

Results flagged for a closer look

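In 7 of 42 groups of 4 or 5 libraries, the highest or lowest library of a gene stood far from the others by Dixon's test. Groups were examined where at least 1 library exceeded 1 RPKM, and several of the 7 did so in the flagged library alone. The test also assumes normal values, so its usual rate of about 1 in 20 is no yardstick here. The 7 are a description. Among receptors, Flt4 was at 118 RPKM in endothelial library L of a healthy mouse and at 3.98 RPKM in stromal progenitor library D of a myeloma-bearing mouse, and Tek was at 8.83 RPKM in stromal progenitor library C of a healthy mouse. Nrp1 was at 0 RPKM in osteoprogenitor library D of a myeloma-bearing mouse, below the other 3. Among ligands, Angpt1 was at 2.36 RPKM in the same stromal progenitor library C that held Tek, and at 1.401 RPKM in endothelial library J of a myeloma-bearing mouse, where Vegfa was also at its highest for endothelium (13.3 RPKM) and the chondrocyte markers summed to 24.4 RPKM, against at most 0.804 RPKM in the other 9 endothelial libraries. Angpt2 was at 12.3 RPKM in endothelial library M of a healthy mouse, the library with the highest Rgs5 of endothelium (354 RPKM).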

How the results depend on the processing

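Over 104 single-gene results and their alternatives, 1633 of 1659 values kept their side of the threshold, 14 lost the call and 12 gained it. No called value reversed, and 107 values that were called in neither setting changed sign. Numbers of genes called moved in these cases. In stromal progenitors of myeloma-bearing against healthy mice, 1 gene (Angpt1) was called with all 38 libraries in 1 fit and 1 with voom-limma on all 38, against 0. For myeloma cells against osteoprogenitors, 4 genes were called with no filter, against 2, since Angpt2 and Nrp1 were then tested. Without each letter in turn the numbers were 2 to 3 against stromal progenitors (4 with all) and 1 to 2 against osteoprogenitors (2 with all). They were 6 to 8 for endothelial cells against each stromal type in healthy mice, 7 to 8 in myeloma-bearing mice, and 7 to 7 for myeloma against endothelial cells. They were 0 to 0 for myeloma-bearing against healthy mice, for the 2 sites of myeloma cells, for osteoprogenitors against stromal progenitors and for the interactions. Vegfc against stromal tissue lost calls under voom-limma on the libraries compared (adjusted p = 0.109 and 0.132 in healthy mice, 0.1245 against stromal progenitors in myeloma-bearing mice), and the last also with a pseudocount of 0.1 (0.104) and no filter (0.1501), and the cause was not tested. With all 38 libraries Angpt1 was called lower in endothelium than in osteoprogenitors of myeloma-bearing mice (adjusted p = 0.0694), and Vegfa also without the trend (0.0842). Over all genes, 258, 31 and 16 were called in endothelial cells, stromal progenitors and osteoprogenitors of myeloma-bearing against healthy mice with all 38 libraries, and 295, 41 and 8 with voom-limma on all 38, against 0, 0 and 1.

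The correlation of the deviations of libraries that share a letter ran from -0.049 to 0.145, with those above 0.1 all of letter G, and in no comparison did every pair exceed 0.1. As a hint from the data, 4 of 4 letters correlated best with their own in endothelial cells against osteoprogenitors of myeloma-bearing mice, and 1 to 3 letters did so in each other comparison. With the replicate block, 7 genes were called for endothelial cells against osteoprogenitors in healthy mice, against 8, and the numbers were 7, 8 and 7 for the other comparisons of endothelial cells with stroma, 7, 4 and 2 for myeloma cells against the 3 cell types, and 0 elsewhere. Groups of 4 or 5 libraries, with genes read in some libraries and at 0 in others, limit what these comparisons can resolve for Angpt1, Angpt2 and stromal Vegfc.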

Other observations

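Values of 3 ligands outside the 10 genes, chosen after they were seen, were as follows. Angpt4, a further angiopoietin, was read only in osteoprogenitors at any level above 0.0898 RPKM, with means of 11.3 ± 14.4 RPKM in healthy and 13.0 ± 9.71 RPKM in myeloma-bearing mice (SD, n = 4 each), and was at 0 in 1 or more libraries of both. Vegfb averaged 13.1 ± 10.6 RPKM in myeloma cells of the bone lining and 11.4 ± 6.24 RPKM in those of the central marrow (SD, n = 5 each), and its lowest library there was at 1.44 RPKM, whereas its median was 0 RPKM in endothelial cells of both conditions. Pgf, the placental growth factor that binds Flt1, was present in all 3 cell types of the bone lining in some libraries and at or near 0 in others, reaching 112 RPKM in endothelium and 86.2 RPKM in osteoprogenitors of myeloma-bearing mice, and was at 0 in all 5 libraries of central marrow myeloma cells.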
